A study of Mus musculus with 6 samples.

Results

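The transcripts described are those of 10 cytokine feedback genes, 7 of the SOCS family (Cish, Socs1, Socs2, Socs3, Socs4, Socs5 and Socs6) and the 3 PIM kinases (Pim1, Pim2 and Pim3). They were taken by name, with earlier results of these data known, as genes of cytokine feedback, and are 10 of 21233 genes in the count table. All 10 passed the filter on low counts, which kept 13255 genes. RNA-seq was made from cultures labelled as mouse Th9 cells, CD4 T helper cells known for secreting interleukin 9. Of the 6 libraries, 3 were made after treatment with sorafenib, a kinase inhibitor drug that acts on RAF kinases and several receptor tyrosine kinases, and 3 from control cells without it. The sources used here do not state the dose, the time, the mouse strain or the culture conditions that made the cells. Nothing in the labels ties a replicate to its own culture or animal, so the p-values describe the spread between these samples alone, and that spread may be technical.

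Cytokine receptors of T cells signal through JAK kinases, which phosphorylate STAT transcription factors, and the STATs in turn switch on SOCS and PIM genes. SOCS proteins carry an SH2 domain, which binds phosphotyrosine on receptors and kinases, and a SOCS box, which docks a ubiquitin ligase, so they close a negative feedback loop on the receptor. PIM proteins are serine/threonine kinases that need no activating phosphorylation from another kinase, so their amount is set largely by transcription and turnover, and they promote growth and survival of activated lymphocytes. Transcripts of several members, Cish and Pim1 among them, are widely read as a record of STAT5 activity in T cells responding to interleukin 2.

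The sequences around the start of the genes are shown first, since STAT dimers bind a palindromic element spelled TTCNNNGAA, or TTCNNNNGAA in the case of STAT6. RefSeq promoter windows of GRCm38.p6, from 250 bases before to 50 bases after the gene start, were at hand for 7 of the 10 members, which gave 8 windows because Pim1 has more than one start. Both elements read the same on either strand, and each window was searched for both, overlaps allowed. The TTCNNNGAA letters were found in the windows of Cish and Socs3, and in 8.3% of all 32851 promoter windows. Those of TTCNNNNGAA were found in 0 of the 8 windows and in 6.95% of all windows. Cish held 2 copies, as 0.457% of all windows did, and the 30-base stretch at chr9:107296655-107296684 (plus strand) that begins 4 bases before its start is given with both in capitals. The 250 bases before the start are given for Socs3, at chr11:117969367-117969616 (minus strand), whose copy lies 154 bases before the start, and for Pim2, at chrX:7878056-7878305 (plus strand), and Pim3, at chr15:88861944-88862193 (plus strand). Socs3, Pim2 and Pim3 are the members with the largest changes below. A match is a description of letters and not evidence of binding, and the submitters name GRCm39 for the measurements, so these positions belong to the sequence table alone.
Cish start region: agttTTCCTGGAAagTTCTTGGAAatctgt
Socs3 promoter: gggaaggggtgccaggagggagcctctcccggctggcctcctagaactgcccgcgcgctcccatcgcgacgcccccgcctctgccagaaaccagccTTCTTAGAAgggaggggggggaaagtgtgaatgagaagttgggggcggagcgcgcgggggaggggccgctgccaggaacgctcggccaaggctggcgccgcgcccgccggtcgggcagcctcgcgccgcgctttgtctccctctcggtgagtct
Pim2 promoter: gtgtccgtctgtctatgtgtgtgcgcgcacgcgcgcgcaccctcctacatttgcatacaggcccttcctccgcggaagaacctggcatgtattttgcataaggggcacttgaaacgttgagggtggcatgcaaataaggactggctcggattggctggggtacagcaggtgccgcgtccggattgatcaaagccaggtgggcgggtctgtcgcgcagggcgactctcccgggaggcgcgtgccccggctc
Pim3 promoter: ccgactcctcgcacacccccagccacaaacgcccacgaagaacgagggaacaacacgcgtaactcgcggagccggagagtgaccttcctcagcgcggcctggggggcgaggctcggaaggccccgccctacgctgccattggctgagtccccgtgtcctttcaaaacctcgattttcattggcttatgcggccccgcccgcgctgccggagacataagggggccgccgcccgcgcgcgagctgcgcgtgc

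Total counts lay between 37138708 and 38126521 in the sorafenib libraries and between 36981476 and 37823139 in the control libraries. Control replicate 2 stood apart: its log2 CPM deviated from its group mean with an SD of 0.327, against 0.193 to 0.255 in the other libraries, and its TMM scaling factor was 0.922, against 0.993 to 1.03. Results are therefore also given without it. The T cell marker genes summed to 1843 to 1915 CPM in sorafenib libraries and 2196 to 2221 CPM in control libraries, with 0 of 7 tested higher and 4 lower (Cd2, Cd3e, Cd3g and Lck). Their log2 fold changes were -0.59 for Cd2, -0.31 for Cd3e, -0.39 for Cd3g and -0.25 for Lck. Those of Cd3d (-0.29), Cd5 (-0.08) and Cd4 (0.06) were not called. Cd2 thus fell as much as Socs3 (-0.59), described below. Th9 genes summed to 2056 to 2070 CPM in sorafenib and 2019 to 2213 CPM in control libraries, with 2 of 6 higher (Il9 and Gata3) and 0 lower. Irf4 made up most of these sums, at 1206 ± 37.2 CPM in sorafenib and 1408 ± 140 CPM in control libraries. Spi1 was low in all libraries, at 0.928 ± 0.0835 CPM in sorafenib and 0.552 ± 0.177 CPM in control libraries. The B cell markers were low but differed, with all 5 tested higher and sums of 28.6 to 31.6 CPM in sorafenib and 7.43 to 15.6 CPM in control libraries. Neutrophil markers summed to 2.58 to 2.96 CPM in sorafenib and 9.35 to 11.3 CPM in control libraries, with 2 of 3 tested lower (Ly6g and Cxcr2). Mpo was low and not called (log2 fold change 0.26, edgeR adjusted p = 0.802). The sums of stromal, endothelial and epithelial markers were 29.3 to 31.01 CPM in sorafenib and 56.8 to 60.2 CPM in control libraries, with 3 of 5 tested lower (Pecam1, Epcam and Krt18). Pecam1 made up most of these sums, at 27.1 ± 0.759 CPM in sorafenib and 50.8 ± 1.07 CPM in control libraries. The collagen gene Col1a1 was low and not called (log2 fold change 0.31, edgeR adjusted p = 0.678). CD8 T cell markers summed to 9.6 to 11.97 CPM in sorafenib and 8.69 to 9.9 CPM in control libraries, with 1 of 3 tested higher (Cd8b1) and 1 lower (Prf1). Myeloid and mast cell markers each summed to under 20 CPM in every library, with 0 called of the 2 myeloid and 1 mast cell genes tested. Kit made up nearly all of the mast cell sum, at 18.6 ± 0.658 CPM in sorafenib and 17.6 ± 0.739 CPM in control libraries. Ms4a1, Csf1r, Cd14, Elane, Mcpt8 and Col1a2 had at most 3 counts in any library. Whether other cells carried these markers, or the Th9 cells themselves did, was not tested, nor was the part of any other cells in the results. In bulk RNA, fewer cells of a type and less RNA per cell cannot be told apart.

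SOCS and PIM transcripts were lower or not detectably different in sorafenib cells, and 0 of 10 were called higher. Transcripts of 5 members were called lower, 2 of the 7 SOCS genes (Socs3 and Socs1) and 3 of the 3 PIM genes, by edgeR's quasi-likelihood test with a Benjamini-Hochberg adjusted p under 0.05. Of all tested genes, 9.43% were called lower and 8.51% higher. Socs3 and Pim3 fell most, 1.5-fold and 1.49-fold, and Pim2 fell 1.4-fold. In 6 of 10 members every sorafenib library lay below every control library on the CPM scale, which held for 18.0% of all tested genes. The members' median log2 fold change was -0.22, that of the SOCS genes -0.13 and that of the PIM genes -0.48, against -0.01 for all tested genes. Without control replicate 2, 7 of 10 members were called lower, with 16.8% of all tested genes. With scaling by total counts alone, 3 of 10 were called lower, with 6.23% of all tested genes. Over all genes, total counts alone gave 1496 higher and 826 lower and log2(FPKM + 1) gave 1405 higher and 748 lower, against 1128 higher and 1250 lower with TMM factors.

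**Figure D1:**
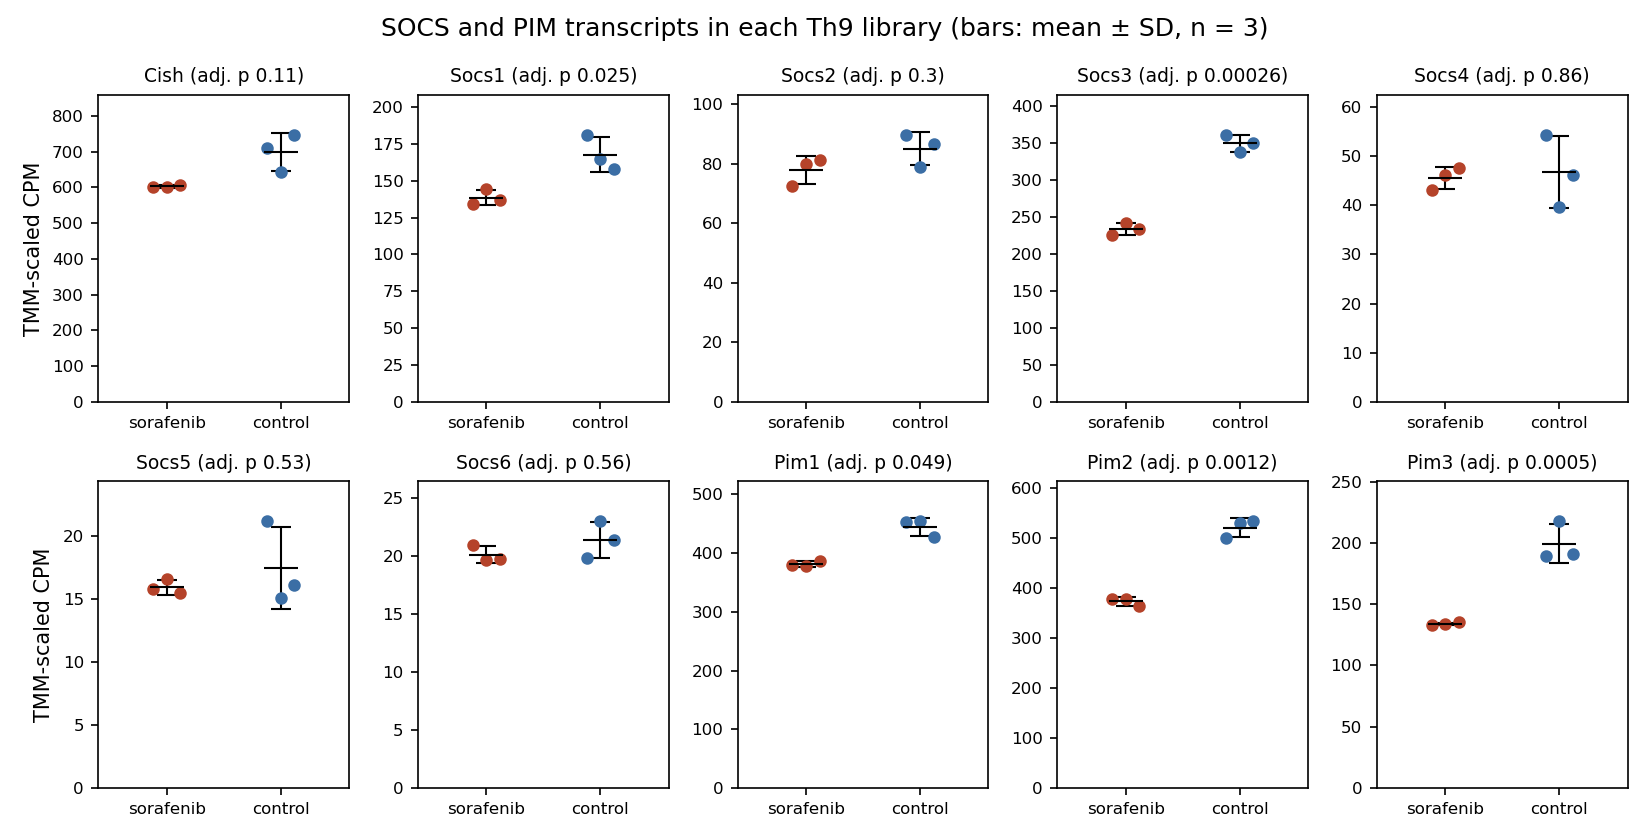
TMM-scaled CPM of the 10 members in each library, 1 panel per gene with its own axis from 0, sorafenib on the left and control on the right; points are libraries and bars are the mean ± SD of 3. The 3 sorafenib points lie below the 3 control points for Socs3, Pim1, Pim2, Pim3, Socs1 and Cish, and the groups overlap for Socs2, Socs4, Socs5 and Socs6.

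Socs3 and Socs1 encode the members that also hold a kinase inhibitory region and block JAK catalysis directly. SOCS3 acts mainly on receptors of the interleukin 6 family through gp130, and SOCS1 on interferon and gamma-chain cytokine receptors. Socs3 had 225, 241 and 233 CPM in the sorafenib libraries, against 360.5, 338 and 350.1 CPM in the control libraries. The groups were far apart relative to their spread, and Socs3 was 1.5-fold lower with sorafenib (log2 fold change -0.59 ± 0.07 SE, 95% interval -0.74 to -0.44, edgeR adjusted p = 0.000264). It ranked 221 by p among the 13255 genes tested. Socs1 had 134, 145 and 137 CPM in the sorafenib libraries, against 181, 165 and 158 CPM in the control libraries. The groups did not overlap, but the highest sorafenib library came near the lowest control library, and Socs1 was 1.21-fold lower (log2 fold change -0.28 ± 0.07 SE, 95% interval -0.44 to -0.11, edgeR adjusted p = 0.0252). Socs1 was not called in 9 of 17 alternatives, among them without sorafenib replicate 1 (edgeR adjusted p = 0.122), sorafenib replicate 2 (0.0625), sorafenib replicate 3 (0.124) or control replicate 1 (0.0613), with total counts only (0.131) and in the 3 fits of FPKM values (limma adjusted p 0.121 to 0.235).

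Cish and Socs2 encode the closest pair of the family, which act on STAT5-coupled receptors, CIS by binding phosphotyrosines of the receptor and SOCS2 best known for limiting growth hormone signalling. Cish had the most CPM of the 10 members, with 600.4, 602 and 608 CPM in the sorafenib libraries, against 709.5, 642 and 747 CPM in the control libraries. The sorafenib libraries were tightly grouped below all controls, and control replicate 2 was the lowest control. The difference did not pass the test (log2 fold change -0.21 ± 0.08 SE, 95% interval -0.40 to -0.03, edgeR adjusted p = 0.107). Cish was called lower without control replicate 2 (log2 fold change -0.27, edgeR adjusted p = 0.000585) and by DESeq2 (adjusted p = 0.0462). In the annotation at hand, 2 noncoding genes overlap Cish on the opposite strand, and neither has an entry under that name in the count table. The sources used here do not state whether counting used the strand. Socs2 had 72.3, 79.9 and 81.2 CPM in the sorafenib libraries, against 89.6, 79 and 86.5 CPM in the control libraries. The groups overlapped through control replicate 2, and the difference did not pass (log2 fold change -0.13 ± 0.08 SE, 95% interval -0.30 to 0.04, edgeR adjusted p = 0.3), while without that library Socs2 was called lower (log2 fold change -0.18, edgeR adjusted p = 0.0379).

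Socs4, Socs5 and Socs6 encode long-tailed members, which are known mainly for acting on receptor tyrosine kinases (SOCS4 and SOCS5 on the epidermal growth factor receptor, SOCS6 on KIT). None of these 3 was called by edgeR, and 0 of the 3 had an unadjusted p under 0.05. Socs4 had 43.1, 46.3 and 47.5 CPM in the sorafenib libraries, against 54.3, 39.8 and 46.3 CPM in the control libraries. The groups overlapped, with controls above and below the sorafenib libraries (log2 fold change -0.04 ± 0.11 SE, 95% interval -0.28 to 0.20, edgeR adjusted p = 0.861). Socs5 had 15.8, 16.6 and 15.4 CPM in the sorafenib libraries, against 21.2, 15.1 and 16.1 CPM in the control libraries. The groups overlapped, and control replicate 1 alone stood above the other 5 libraries, which lay close together (log2 fold change -0.13 ± 0.13 SE, 95% interval -0.42 to 0.15, edgeR adjusted p = 0.529). Socs6 had 20.9, 19.6 and 19.7 CPM in the sorafenib libraries, against 19.8, 23 and 21.3 CPM in the control libraries. The groups overlapped within a narrow range (log2 fold change -0.09 ± 0.09 SE, 95% interval -0.29 to 0.11, edgeR adjusted p = 0.556). Processed pseudogenes lie within Socs6 in the annotation at hand, so its counts may be shared with them. Under the names in that annotation they have no entry in the count table, so sharing could not be checked. The intervals of these 3 genes exclude a fall as large as that of Socs3, whose estimate lay below the lower bound of each.

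The PIM kinases are each encoded by a single gene and have overlapping substrates. Pim1, the first identified, had 379.7, 378 and 387 CPM in the sorafenib libraries, against 453, 454 and 428 CPM in the control libraries. The groups did not overlap, and Pim1 was 1.17-fold lower (log2 fold change -0.22 ± 0.07 SE, 95% interval -0.37 to -0.07, edgeR adjusted p = 0.0494), next to the threshold. Pim1 was not called in 12 of 17 alternatives, among them without sorafenib replicate 1 (edgeR adjusted p = 0.169), 2 (0.173) or 3 (0.177), without control replicate 1 (0.0784) or 3 (0.0902), with total counts only (0.154), upper-quartile factors (0.0922) or no filter (0.102), and in the 3 fits of FPKM values (limma adjusted p 0.12 to 0.127). Pim2, which sustains cap-dependent translation and survival of lymphocytes, had 379, 377 and 364 CPM in the sorafenib libraries, against 499.6, 531 and 534 CPM in the control libraries. Every sorafenib library was far below every control library, and Pim2 was 1.4-fold lower (log2 fold change -0.48 ± 0.07 SE, 95% interval -0.64 to -0.32, edgeR adjusted p = 0.00116). Pim3 had 133, 134 and 135 CPM in the sorafenib libraries, against 189.5, 218 and 191 CPM in the control libraries. The 3 sorafenib libraries were nearly equal and control replicate 2 was the highest control, and Pim3 was 1.49-fold lower (log2 fold change -0.57 ± 0.07 SE, 95% interval -0.73 to -0.41, edgeR adjusted p = 0.000499). An antisense gene, Gm26885, overlaps Pim1 in the annotation at hand, with a mean of 34.3 counts in sorafenib and 36.0 in control libraries, far below the counts of Pim1.

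**Figure D2:**
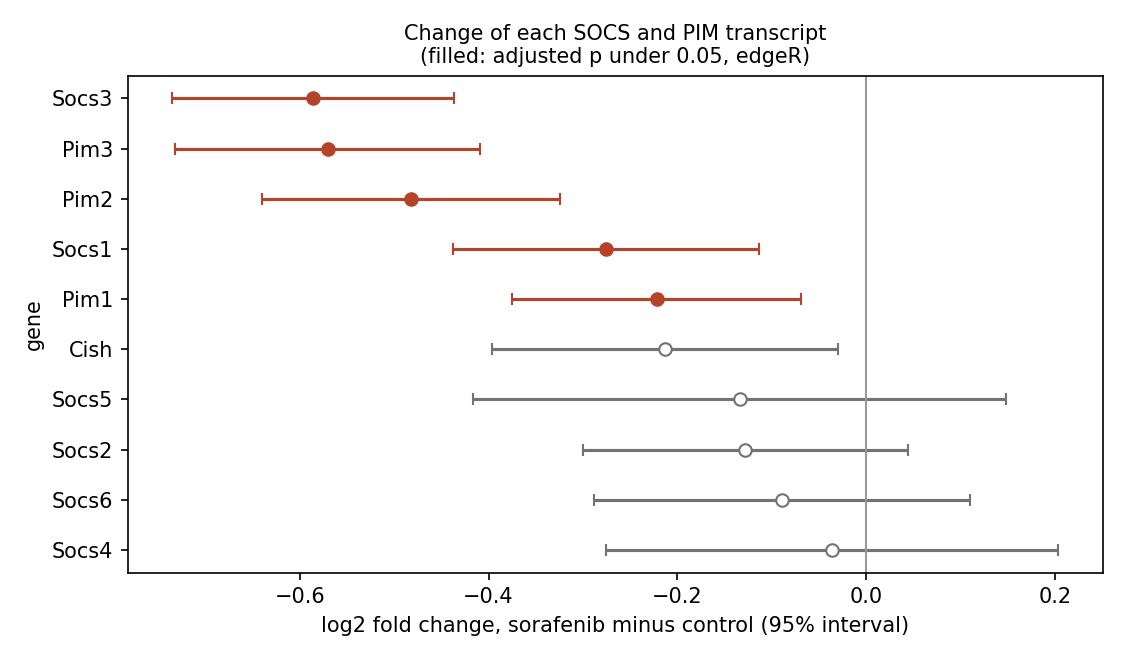
Log2 fold change of each member, sorafenib minus control, on the x axis, with its 95% interval; genes run down the page from the most negative change, and filled points passed an adjusted p of 0.05 by edgeR. Socs3 at -0.59, Pim3 at -0.57 and Pim2 at -0.48 stand apart from Socs1 at -0.28, Pim1 at -0.22 and Cish at -0.21.

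Levels per gene length were compared on the deposited FPKM scale, which is scaled by total counts. In sorafenib libraries Pim2 was highest (188 ± 4.17 FPKM), followed by Cish (144 ± 1.46) and Pim1 (144 ± 1.86), Socs1 (106 ± 4.71), Socs3 (87.5 ± 3.54) and Pim3 (56.95 ± 0.613 FPKM, SD, n = 3 each). A wide step on this scale separated these 6 from Socs4 (6.8 ± 0.368), Socs2 (6.1 ± 0.405), Socs6 (3.28 ± 0.103) and Socs5 (1.65 ± 0.0663 FPKM). Gene length widens the step: the lower genes have fixed lengths of 6287 to 13085 bases, and the upper 6 have 1340 to 4293. In CPM, Socs2 averaged 77.8, Socs4 45.6, Socs6 20.1 and Socs5 15.9 in sorafenib libraries, against 134 for Pim3. Cish and Pim1 were the only neighbours in the FPKM order whose sorafenib libraries overlapped. In control libraries the order was Pim2 (249 ± 10.1), Pim1 (159.6 ± 7.58), Cish (159 ± 18.6), Socs3 (125 ± 9.81), Socs1 (122 ± 12.5), Pim3 (80.1 ± 2.54), Socs4 (6.65 ± 1.32), Socs2 (6.34 ± 0.699), Socs6 (3.3 ± 0.108) and Socs5 (1.72 ± 0.387 FPKM). Neighbours that overlapped in the controls were Pim1 with Cish, Socs3 with Socs1, and Socs4 with Socs2. Socs3 thus stood level with Socs1 in control libraries and below it in every sorafenib library. On this scale Cish overlapped between the groups, at 143 to 145 FPKM in sorafenib and 138 to 173 FPKM in control libraries.

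The 7 SOCS genes summed to 356 ± 9.86 FPKM in sorafenib and 424 ± 39.1 FPKM in control libraries. Socs3 made up 24.6 ± 0.316% of that sum in sorafenib libraries and 29.4 ± 0.430% in control libraries, with no overlap. Cish made up 40.6 ± 0.834% in sorafenib and 37.5 ± 1.92% in control libraries, and here control replicate 3 overlapped the sorafenib libraries. The 3 PIM genes summed to 389 ± 2.71 FPKM in sorafenib and 488 ± 10.04 FPKM in control libraries. Pim1 made up 37.1 ± 0.642% of the PIM sum in sorafenib libraries and 32.7 ± 1.24% in control libraries, without overlap, while Pim2 had the largest share in both (48.3 ± 0.812% in sorafenib, 50.9 ± 1.41% in control).

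Ratios between members inside a library do not depend on how libraries are scaled, and 6 were computed, chosen with the values known. Socs3 over Socs1 was 0.822, 0.817 and 0.831 in the sorafenib libraries, against 0.976, 1.01 and 1.09 in the control libraries, and Socs3 over Cish averaged 0.606 ± 0.0203 in sorafenib and 0.787 ± 0.0461 in control libraries. Socs3 was thus lower relative to both of these SOCS genes in each sorafenib library. Pim2 over Pim1 averaged 1.3 ± 0.0439 in sorafenib and 1.56 ± 0.0969 in control libraries, and Pim3 over Pim1 0.395 ± 0.00283 in sorafenib and 0.503 ± 0.0342 in control libraries. For these 4 ratios the groups did not overlap, and the two-sided exact permutation p was 0.1, the smallest that 3 against 3 allow (0.15 adjusted over the 6 ratios), so this permutation test cannot reach 0.05. Pim3 over Pim2 overlapped, at 0.303 ± 0.00882 in sorafenib and 0.323 ± 0.0226 in control libraries (exact permutation p = 0.2), as did Socs3 over Pim3, at 1.54 ± 0.05 in sorafenib and 1.56 ± 0.165 in control libraries (exact permutation p = 0.9).

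**Figure D3:**
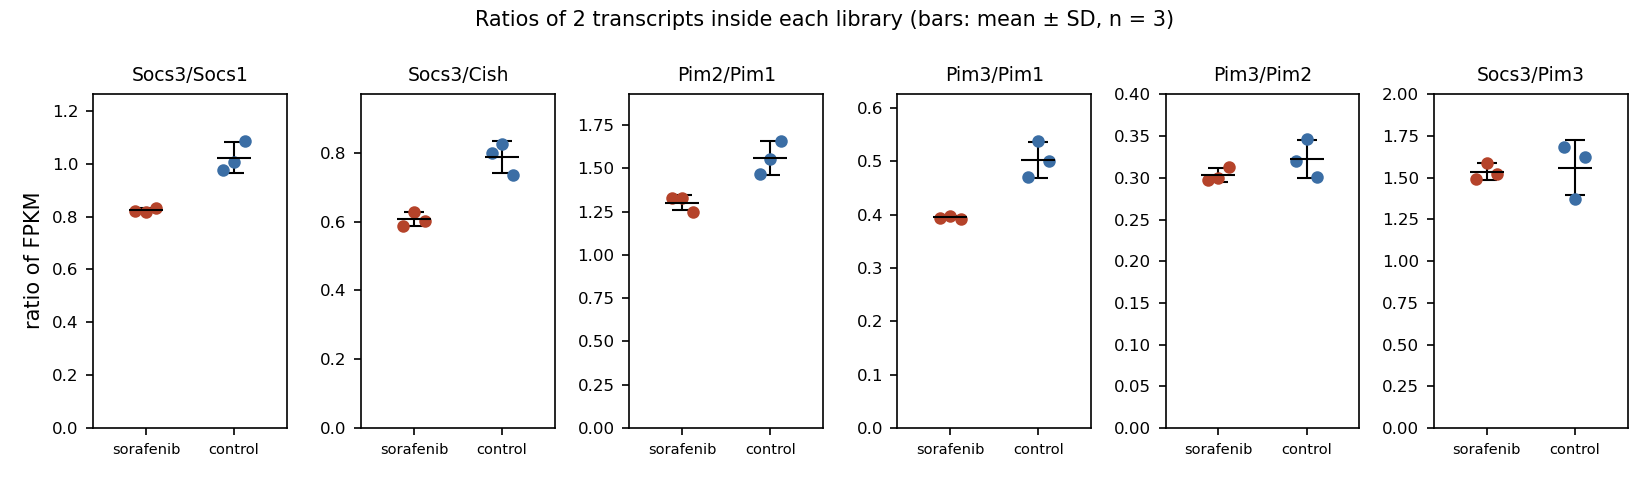
Ratio of the FPKM of 2 members inside each library, 1 panel per ratio with its own axis from 0, sorafenib on the left and control on the right; points are libraries and bars the mean ± SD of 3. The ratios of Socs3 to Socs1 and to Cish, and of Pim2 and Pim3 to Pim1, are lower in all 3 sorafenib libraries, while Pim3 to Pim2 and Socs3 to Pim3 overlap.

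Socs3, Pim2 and Pim3 were called lower in all 17 alternative analyses, with log2 fold changes from -0.61 to -0.50 for Socs3, -0.51 to -0.40 for Pim2 and -0.61 to -0.48 for Pim3. Socs1 was called in 8 of the 17 and Pim1 in 5. Cish was called in 2, and Socs2 in 1. Socs4, Socs5 and Socs6 were called in 0 of the 17 alternatives, which include DESeq2 and limma-voom. The fitted change was below 0 throughout for Cish, Socs1, Socs2, Socs3, Socs6 and the PIM genes, while that of Socs4 turned positive in 7 alternatives, total counts only and FPKM among them, and that of Socs5 in 1.

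**Figure D4:**
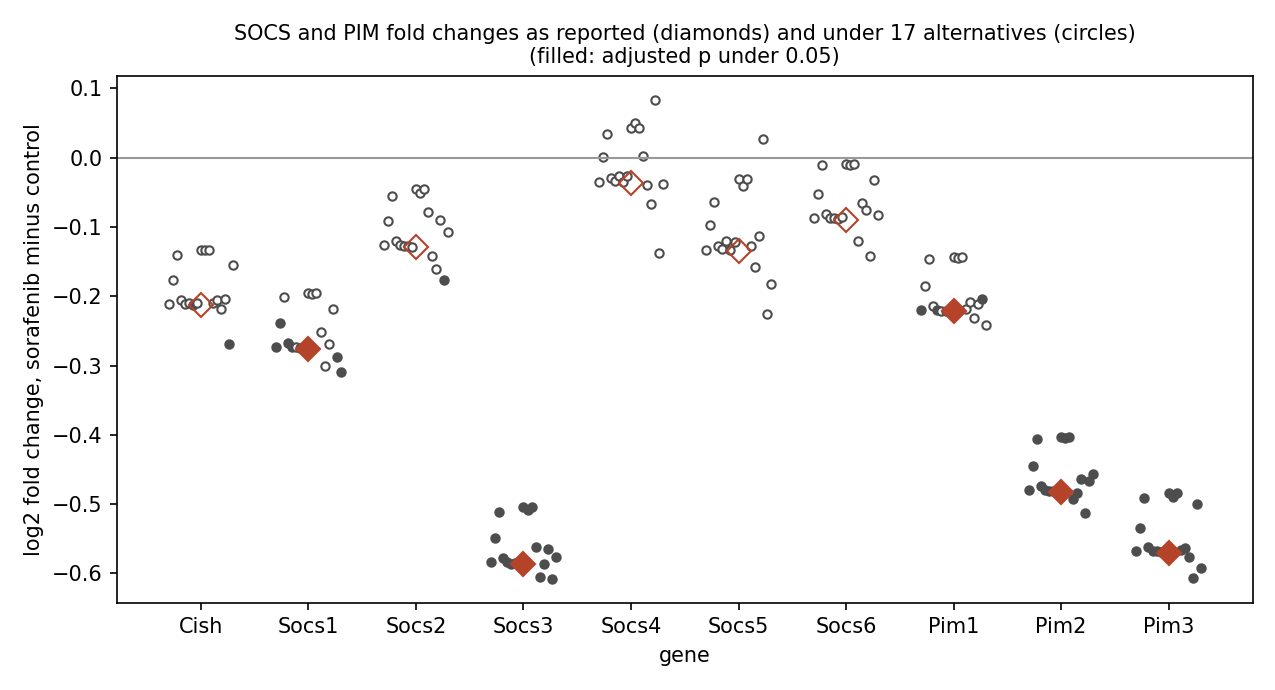
Log2 fold change, sorafenib minus control, of each member as reported (diamonds) and under 17 alternative analyses (circles); filled symbols passed an adjusted p of 0.05. Socs3, Pim2 and Pim3 are filled throughout, at -0.61 to -0.40, and Socs4 scatters about 0, from -0.14 to 0.084.

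The genes whose pattern over the 6 libraries was most like that of Socs3 and Pim3 were found by the root mean square difference of centred log2 CPM, among 8796 other genes averaging 3 or more on the log2 CPM scale. Nearest to Socs3 were Il21, an interleukin (0.0313 log2 units), Dusp16, a phosphatase of JNK and p38 kinases (0.0314), and Cipc, an inhibitor of the CLOCK protein (0.0358). Il21 had 146 ± 6.66 CPM in sorafenib and 221 ± 11.96 CPM in control libraries. Nearest to Pim3 were Borcs6, a subunit of a lysosome-positioning complex (0.0208), Plekhf2, an endosomal protein (0.0301), and Sdf4, a Golgi calcium-binding protein (0.0322). Sdf4 had 692 ± 3.3 CPM in sorafenib and 1073 ± 95.9 CPM in control libraries, and, as for Pim3, control replicate 2 was the highest. All of these genes were picked for likeness over the same 6 libraries. A shared fall or a shared highest library therefore follows from the choice and is no separate result.

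Upstream of the members, 3 of 22 tested cytokine receptor chains were higher and 6 lower with sorafenib, with a median log2 fold change of -0.12. Il2ra and Il7r, chains of the interleukin 2 and 7 receptors, were lower: Il7r had 104 ± 1.96 CPM in sorafenib and 161 ± 5.19 CPM in control libraries (1.55-fold lower, edgeR adjusted p = 0.000126), and Il2ra was 1.6-fold lower, edgeR adjusted p = 0.00127. These receptors, as whole complexes, couple to STAT5. Il12rb2, of the interleukin 12 receptor, was 5.14-fold lower, edgeR adjusted p = 2.52e-06. Il6ra, the interleukin 6 receptor chain whose signalling SOCS3 restrains through gp130, had 50.6 ± 3.56 CPM in sorafenib and 27.8 ± 6.18 CPM in control libraries (1.82-fold higher, edgeR adjusted p = 0.00202). The cytokine genes moved both ways, with 2 of 14 tested higher and 6 lower and a median of -0.32. Il10 (2.58-fold lower, edgeR adjusted p = 1.98e-05), Il21 (1.52-fold lower, edgeR adjusted p = 0.000308), Il22 (8.01-fold lower, edgeR adjusted p = 0.000292) and Il24 (3.43-fold lower, edgeR adjusted p = 2.83e-06) signal mainly through STAT3, and Il22 was low in all libraries, at 0.654 ± 0.153 CPM in sorafenib and 5.27 ± 2.41 CPM in control libraries.

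The median of the 4 JAK genes was -0.13, with 0 higher and 1 lower: Jak2 had 473 ± 20.3 CPM in sorafenib and 566 ± 8.11 CPM in control libraries (1.2-fold lower, edgeR adjusted p = 0.0336). It was called in 6 of the 17 alternatives, and missed the threshold when any 1 of the sorafenib replicates or control replicate 3 was left out (edgeR adjusted p 0.0784 to 0.172). Another of the 4 JAK genes had a lower log2 fold change than Jak2 (-0.33 against -0.26) but was not called. Among the STAT genes, Stat3, the factor that drives Socs3 downstream of gp130, had 958 ± 7.59 CPM in sorafenib and 1251 ± 29.9 CPM in control libraries (1.31-fold lower, edgeR adjusted p = 0.00811), which missed the threshold when any 1 of the sorafenib replicates was left out (edgeR adjusted p 0.0511 to 0.0657). Stat4, of interleukin 12 signalling, had 45.3 ± 4.68 CPM in sorafenib and 33.2 ± 2.35 CPM in control libraries (1.37-fold higher, edgeR adjusted p = 0.00831), or an adjusted p of 0.0526 when sorafenib replicate 1 was left out. Stat5a (log2 fold change 0.09, edgeR adjusted p = 0.523) and Stat5b (-0.14, 0.228), the factors most tied to Cish and Pim1, did not pass. RNA levels do not show the phosphorylation of STAT proteins. Whether any STAT had a part in the changes of the members was not tested.

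Among 17 other negative regulators of the pathway, 1 was higher and 5 lower, with a median of -0.04. Ptpn6, the phosphatase SHP-1, had 222 ± 6.47 CPM in sorafenib and 155 ± 5.54 CPM in control libraries (1.43-fold higher, edgeR adjusted p = 0.000437). Pias2, a SUMO ligase of the PIAS family (1.41-fold lower, edgeR adjusted p = 0.000848), Spred2, an inhibitor of RAS to ERK signalling (1.36-fold lower, edgeR adjusted p = 0.00516), and Ptpn2, a phosphatase of JAK1 and STATs (1.26-fold lower, edgeR adjusted p = 0.0105), were lower. Ptpn2 missed the threshold when sorafenib replicate 2 (edgeR adjusted p = 0.0565) or 3 (0.0639) was left out, and Spred2 did so on the FPKM values (limma adjusted p 0.107 to 0.231). Socs7, the family member outside the 10, had 83.1 ± 1.46 CPM in sorafenib and 72.2 ± 5.31 CPM in control libraries and did not pass (log2 fold change 0.20, edgeR adjusted p = 0.085). Of 7 subunits and partners of the ligase that the SOCS box docks, with a median of -0.09, 0 were higher and 1 lower, Arih2, a ubiquitin ligase that works with cullin 5 (1.23-fold lower, edgeR adjusted p = 0.0119), which missed the threshold when sorafenib replicate 2 (0.0638) or 3 (0.0781) was left out.

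Genes listed as other targets of STAT5, STAT3 or STAT6, whether induced or repressed by them, were lower more often than not called. Of 27 tested, 1 was higher, 15 were lower and 11 were not called, with a median of -0.40. Nfil3, a basic leucine zipper factor, had 246 ± 2.93 CPM in sorafenib and 405 ± 11 CPM in control libraries (1.64-fold lower, edgeR adjusted p = 6.43e-05). Tnfrsf9, the costimulatory receptor 4-1BB (2.5-fold lower, edgeR adjusted p = 1.25e-05), Gzmb, a granzyme (4.16-fold lower, edgeR adjusted p = 2.09e-05), and Fasl, the death ligand (7.24-fold lower, edgeR adjusted p = 1.28e-05), were also lower. The log2 fold change of Fasl was -2.86 by edgeR but -1.41 on log2(FPKM + 1), a scale that understates changes of low genes. Earlier results of these data on STAT5 genes were known when this list was made, so its count is no independent support for the members. Downstream, 1 of 20 PIM substrates and partners was higher and 1 lower, with a median of -0.01. Foxo3, a forkhead factor that PIM kinases phosphorylate, had 238 ± 7.58 CPM in sorafenib and 204 ± 6.28 CPM in control libraries (1.16-fold higher, edgeR adjusted p = 0.0404), which missed the threshold in 7 of 17 alternatives, among them each that left out a sorafenib replicate or control replicate 3 (edgeR adjusted p 0.0858 to 0.211). Mycn, of the MYC family with which PIM kinases cooperate in lymphoma, was low in all libraries, at 0.737 ± 0.294 CPM in sorafenib and 4.52 ± 0.313 CPM in control libraries (6.1-fold lower, edgeR adjusted p = 0.000138).

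**Figure D5:**
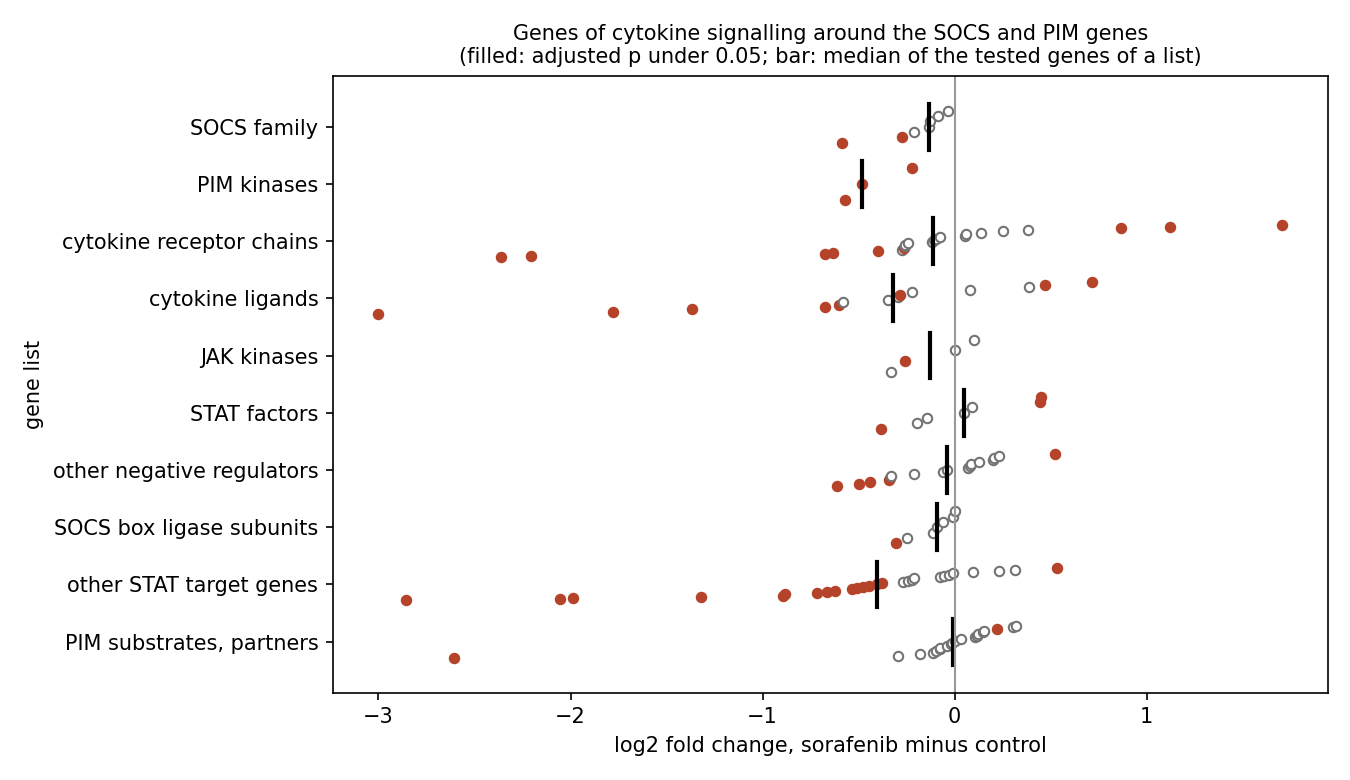
Log2 fold change, sorafenib minus control, of each tested gene of the SOCS and PIM families and of 8 lists around them; filled points passed an adjusted p of 0.05 by edgeR, black bars are list medians, and the vertical spread within a list only separates the points. The bars of the PIM kinases (-0.48) and of other STAT target genes (-0.40) lie farthest below 0, while that of the PIM substrates (-0.01) lies near it.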

How the data were processed

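The 6 RNA-seq libraries of mouse Th9 cells were assigned to sorafenib (3) or control (3) from their titles. Per the labels' protocols, TRIzol was used for RNA extraction, and the library kit was VAHTS Universal V5. The deposited values are gene counts in whole numbers and FPKM, and the submitters' processing notes list fastp, HISAT2, HTSeq, DESeq2, R 3.2.0 and GRCm39. The sources used here do not state their roles, the strand setting or the treatment of reads matching several genes. The deposited FPKM of a gene was its count divided by the column total and a fixed gene length.

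The count test was edgeR 4.0.16 (filterByExpr, TMM factors, robust quasi-likelihood fit with group as its one term) under R 4.3.3. Adjusted p-values are Benjamini-Hochberg values over the 13255 genes tested, and 0.05 was the threshold. Each SE follows from the F statistic, and each 95% interval uses the moderated degrees of freedom. Simulated data with known changes were used to check the script. A count of 0 would allow up to 3 counts (0.0766 to 0.0871 CPM), for counting error only. Lists were described by counts and medians. Alternatives changed the scaling, the filter or the tool (DESeq2 1.42.0, limma-voom, and limma 3.58.1 on log2(FPKM + 1) or log2(FPKM + 0.1), with a minimum mean FPKM of 0.5 or none), added a replicate block, or dropped 1 library. The log2(FPKM + pseudocount) scale understates changes of low genes. RefSeq promoters (GRCm38.p6) were matched by symbol.

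The members, the lists and the tests were chosen with earlier results of these data known. The genes named are the 10 members, up to 4 called genes of each other list by smallest adjusted p, and the 3 genes nearest in pattern to 1 SOCS and 1 PIM gene, those with the smallest adjusted p. One gene that this rule names is not reported here. Stat5a, Stat5b and Socs7 were named, and the ratios chosen, after their values were seen.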

Additional observations from a re-analysis of the deposited data

How the results depend on the processing

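Against 5 members called, 3 (Socs3, Pim2 and Pim3) were called with total counts only, with the replicate number as a block, and on the FPKM values with either pseudocount or no filter. Other scaling, filters, DESeq2 and limma-voom called 4 to 6. Leaving out 1 library at a time called 3 to 7 members, and 1243 to 4325 genes in all against 2378, with the highest of both without control replicate 2. Socs4, never called, reversed its sign with upper-quartile factors (0.000595), total counts only (0.034), log2(FPKM + 1) with and without a filter (0.043) and log2(FPKM + 0.1) (0.051), and ranged from -0.14 to 0.084 without single libraries, as Socs5 did from -0.23 to 0.027. The cause was not tested. Same-numbered libraries correlated at -0.06, 0.15 and 0.10 in their deviations from the group means, against -0.18 to 0.098 for differently numbered ones. With 3 libraries per group these values cannot decide whether the numbers pair the libraries. The replicate block called 2139 genes, and 3 members, with Socs1 (edgeR adjusted p = 0.0503) and Pim1 (0.129) no longer called. Cish and Socs2 were called without control replicate 2, and Cish also by DESeq2. What depth limits for these genes was not tested.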
